A study of Mus musculus with 5 samples.

Results

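The 9 neural basic helix-loop-helix (bHLH) genes Neurog1, Neurog2, Neurog3, Neurod1, Atoh1, Olig1, Olig2, Olig3 and Bhlhe22 were examined for binding of CBX2 in mouse embryonic fibroblasts (MEFs). They are 9 of the 22367 protein-coding genes of the annotation. The set was named as a gene family, but its members were chosen by the peak calls as well, because the starts of Neurog1 and Atoh1 were known to lie in peaks of the K27M list alone. All calls at the 9 genes are therefore a description, with no test.

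CBX2 was mapped by ChIP-Seq on chromatin digested with micrococcal nuclease. The Control cells were the parental MEF line, in which loxP sites flank exons of Eed, a gene of Polycomb Repressive Complex 2 (PRC2). The EZHIP and K27M cells were derived from this line, carried the same floxed allele, and were transduced with a puromycin-selected lentiviral vector, which drove either human EZHIP or a histone H3.3 with the K27M substitution from the EF1a promoter. The labels describe 5 libraries, of which Control, EZHIP and K27M (1 library each) were used. Those named K27R and EEDnull were not analysed here. The MEFs were isolated from an E13.5 embryo, and neither their passage nor whether the Control cells received an empty vector is stated.

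Proneural bHLH proteins bind E-box sequences as dimers with ubiquitous E proteins and commit progenitors to neuronal fates, in part by raising Notch ligands that hold back neighbouring cells. Olig proteins pattern the ventral and dorsal neural tube and drive the oligodendrocyte lineage. In cells outside the nervous system these genes are textbook targets of Polycomb repression, in which PRC2 trimethylates histone H3 at lysine 27 and the CBX subunits of Polycomb Repressive Complex 1 (PRC1), CBX2 among them, can bind that mark at CpG-rich gene starts. EZHIP and H3.3 K27M both inhibit PRC2, and the comparison addresses where CBX2 remains when that enzyme is blocked.

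Each library gave a list of broad peaks, with a start and an end in whole 200 bp bins and no height. The lists comprised 289 peaks for Control, 255 for EZHIP and 327 for K27M, and the read depth behind them is unknown. No difference below has a replicate check, since each group was 1 library, and neither depth nor peak calling can be told apart from the condition. A missing peak means that none was called there, not that CBX2 was absent. The lists hold no expression values, so the fibroblast identity of the cells could not be checked. No peak lay within 5 kb of any of 10 fibroblast genes in any list, and Sox2 was the gene with peaks among 6 neural marker genes. Over all protein-coding genes the share with such a peak was 1.78% in K27M, 1.49% in Control and 1.44% in EZHIP. Lists of this size would thus mostly hold no gene with a peak, and the counts say nothing of cell identity.

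Of the 9 genes, 8 had a CBX2 peak in K27M-expressing cells, against 4 in Control and 3 in EZHIP-expressing cells. A gene was counted when a peak touched its body or the 5 kb on either side. Over all protein-coding genes the share was 1.78% in K27M, 1.49% in Control and 1.44% in EZHIP. Wherever a gene had a peak, its annotated 5′ end lay inside that peak, and each gene had at most 1 peak per list. Over all genes, 1.19% had the 5′ end inside a K27M peak, 0.903% inside a Control peak and 0.894% inside an EZHIP peak.

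The genes fell into 4 patterns. Neurog2, Olig2 and Olig3 had a peak in all 3 lists. Bhlhe22 had a peak in Control and K27M but not in EZHIP. Neurog1, Neurod1, Atoh1 and Olig1 had a peak in K27M alone, and Neurog3 had none. No gene had a peak in Control or EZHIP that K27M lacked.

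**Figure D1:**
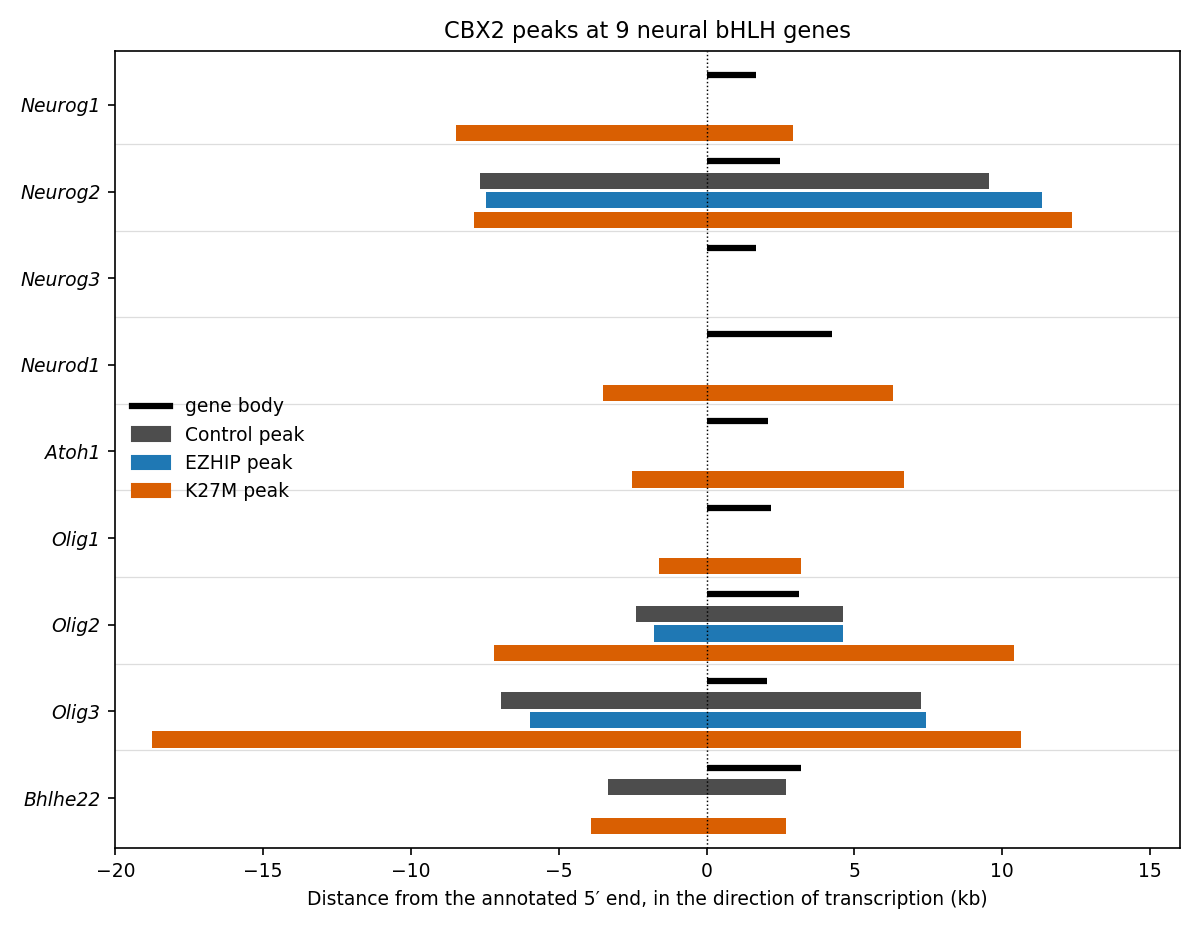
CBX2 peaks at the 9 genes, with the distance from the annotated 5′ end in kb on the horizontal axis (transcription runs to the right), black bars for gene bodies and 1 coloured bar per list. The K27M list has a bar at 8 genes, including 4 where the other lists have none, and no list has a bar at Neurog3.

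A peak in K27M alone within 5 kb was called at 0.492% of all protein-coding genes, and 0.367% had the 5′ end inside such a peak. Set against the genes with any K27M peak, the pattern was not rare. Of the 398 protein-coding genes with a K27M peak within 5 kb, 110 (27.6%) had none in the other lists, beside 4 of the 8 genes here. The pattern had chosen 2 of those 4, Neurog1 and Atoh1, so nothing is read from the difference. The distances also show that the 5 kb rule was not close to deciding any call. The shortest distance from an uncalled 5′ end to a peak was that of Olig1, 39.6 kb in both Control and EZHIP.

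The neurogenins, which determine neuronal or endocrine fate, showed each extreme. Neurog1, a determinant of sensory neurons of the cranial and dorsal root ganglia, is a single-exon gene on the minus strand at chr13:56351866-56353524 (mm9). Its K27M peak ran from 56350601 to 56362000, a width of 11.4 kb that took in the whole gene body. The nearest Control peak lay 289 kb from the 5′ end and the nearest EZHIP peak 416 kb away. The K27M peak was lopsided, with 8.48 kb upstream of the 5′ end and 2.92 kb downstream. Its nearest protein-coding neighbour, Cxcl14, lay outside the peak, 36484 bp from the gene.

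Neurog2, which drives neurogenesis in the dorsal forebrain, lies on the plus strand at chr3:127336054-127338549 and had the most similar peaks across the lists. The Control peak measured 17.2 kb (127328401 to 127345600), the EZHIP peak 18.8 kb (127328601 to 127347400) and the K27M peak 20.2 kb (127328201 to 127348400). The upstream edges lay within 0.4 kb of each other, that is within 2 bins, so the wider EZHIP and K27M peaks differed at the downstream edge. This edge lay 1.8 kb further out in EZHIP and 2.8 kb further out in K27M than in Control. The Control peak was wider than 79.2% of all Control peaks.

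Neurog3, the determinant of endocrine cells of the pancreas, lies at chr10:61595838-61597511 and had no peak in any list. The nearest peaks lay 3898 kb away in Control, 3900.4 kb away in EZHIP and 3899 kb away in K27M. Neurog3 thus stood in a stretch without calls in all libraries, and it is the member of the set best known for a role outside the nervous system.

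The sequences just upstream of these paralogues and of the Olig1 and Olig2 pair are shown because the genes differ in peak pattern. All carry CpG dinucleotides, which are frequent at Polycomb targets but also at many genes without a peak. Each run is the 250 bases before the annotated 5′ end on the coding strand of mm9, 5′ to 3′, with CpG dinucleotides in capitals. The runs come from chr13:56353525-56353774 (minus strand) for Neurog1, chr3:127335804-127336053 for Neurog2, chr10:61595588-61595837 for Neurog3, chr16:91269764-91270013 for Olig1 and chr16:91225545-91225794 for Olig2.
Neurog1: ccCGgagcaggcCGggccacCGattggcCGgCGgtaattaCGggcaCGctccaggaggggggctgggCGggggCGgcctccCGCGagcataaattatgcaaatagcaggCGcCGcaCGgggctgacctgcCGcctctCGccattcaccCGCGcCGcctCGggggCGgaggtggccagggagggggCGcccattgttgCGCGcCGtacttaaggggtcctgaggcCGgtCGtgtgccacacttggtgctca
Neurog2: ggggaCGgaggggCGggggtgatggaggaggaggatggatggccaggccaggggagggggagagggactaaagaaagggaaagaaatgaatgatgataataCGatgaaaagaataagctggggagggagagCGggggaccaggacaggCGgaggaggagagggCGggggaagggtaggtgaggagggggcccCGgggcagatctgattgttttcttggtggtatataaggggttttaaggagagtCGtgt
Neurog3: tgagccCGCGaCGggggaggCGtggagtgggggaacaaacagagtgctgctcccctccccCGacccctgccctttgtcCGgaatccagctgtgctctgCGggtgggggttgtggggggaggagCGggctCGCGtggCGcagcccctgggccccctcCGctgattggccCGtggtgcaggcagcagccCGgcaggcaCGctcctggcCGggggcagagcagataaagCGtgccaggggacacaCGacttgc
Olig1: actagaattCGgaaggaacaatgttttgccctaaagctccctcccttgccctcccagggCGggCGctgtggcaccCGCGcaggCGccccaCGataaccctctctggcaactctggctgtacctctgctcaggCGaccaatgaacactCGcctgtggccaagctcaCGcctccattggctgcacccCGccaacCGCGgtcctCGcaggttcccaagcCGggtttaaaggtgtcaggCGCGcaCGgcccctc
Olig2: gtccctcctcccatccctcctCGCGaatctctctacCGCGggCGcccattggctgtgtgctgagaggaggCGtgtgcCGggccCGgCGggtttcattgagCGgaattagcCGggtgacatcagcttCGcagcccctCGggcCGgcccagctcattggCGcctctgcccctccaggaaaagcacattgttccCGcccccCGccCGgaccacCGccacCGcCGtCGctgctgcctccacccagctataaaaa
The count of CpG dinucleotides was 27 for Neurog1, 8 for Neurog2, 18 for Neurog3, 18 for Olig1 and 22 for Olig2, beside a median of 8 over all protein-coding genes. Neurog3, with no peak, thus had as many as Olig1, with a K27M peak, and more than Neurog2, with a peak in every list.

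Neurod1, which drives terminal differentiation of neurons and of insulin-producing cells, lies on the minus strand at chr2:79292678-79296908. Its 9.8 kb K27M peak (79290601 to 79300400) reached 3.49 kb upstream and 6.31 kb downstream of the 5′ end, and covered the gene body. The nearest Control peak lay 4764 kb away and the nearest EZHIP peak 4744 kb away. The start of Cerkl, on the same strand, lies 34 bp from that of Neurod1, and the long non-coding gene Gm17325 begins inside the same peak on the other strand, so the peak cannot be assigned to Neurod1 alone.

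Atoh1, required for cerebellar granule cell precursors and inner ear hair cells, is a single-exon gene on the plus strand at chr6:64679140-64681227. Its K27M peak measured 9.2 kb (64676601 to 64685800), with 2.54 kb upstream and 6.66 kb downstream of the 5′ end. The nearest Control peak was 3304 kb away and the nearest EZHIP peak 6224 kb away. No other annotated gene overlapped the peak. The K27M peak thus extended mainly upstream at Neurog1 and mainly downstream at Atoh1.

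The 3 Olig genes all had K27M peaks, of 4.8, 17.6 and 29.4 kb at Olig1, Olig2 and Olig3. Olig2, which specifies motor neurons and oligodendrocyte precursors, lies at chr16:91225795-91228922. Its peak measured 7.0 kb in Control (91223401 to 91230400), 6.4 kb in EZHIP (91224001 to 91230400) and 17.6 kb in K27M (91218601 to 91236200). The Control and EZHIP peaks ended on the same bin downstream. The K27M peak began 4.8 kb further upstream and ended 5.8 kb further downstream than the Control peak, so it was 2.51 times as wide.

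Olig1, which supports oligodendrocyte maturation, lies at chr16:91270014-91272184, with its 5′ end 44.2 kb from that of Olig2 on the same strand. Its K27M peak was the narrowest of the set, 4.8 kb (91268401 to 91273200), and the Control and EZHIP lists held no peak between Olig2 and Olig1. In K27M a gap of 32.2 kb separated the Olig2 and Olig1 peaks, so these were separate calls and not a merged domain.

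Olig3, a patterning factor of dorsal spinal cord and hindbrain progenitors, is a single-exon gene at chr10:19076366-19078412. The peak measured 14.2 kb in Control (19069401 to 19083600), 13.4 kb in EZHIP (19070401 to 19083800) and 29.4 kb in K27M (19057601 to 19087000). The K27M peak was the widest of all peaks in the set and wider than 88.7% of K27M peaks. Most of the difference lay upstream, where the K27M peak began 11.8 kb further out than the Control peak, against 3.4 kb downstream.

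Bhlhe22, a transcriptional repressor in dorsal interneurons and cortical projection neurons, is a single-exon gene at chr3:17954325-17957509. Its peak measured 6.0 kb in Control (17951001 to 17957000) and 6.6 kb in K27M (17950401 to 17957000), and the EZHIP list had no peak within 4480 kb of the 5′ end. Both peaks ended on the same bin inside the gene and covered 84.0% of its body. At every other gene with a peak, the whole body was covered in each list that had the call.

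**Figure D2:**
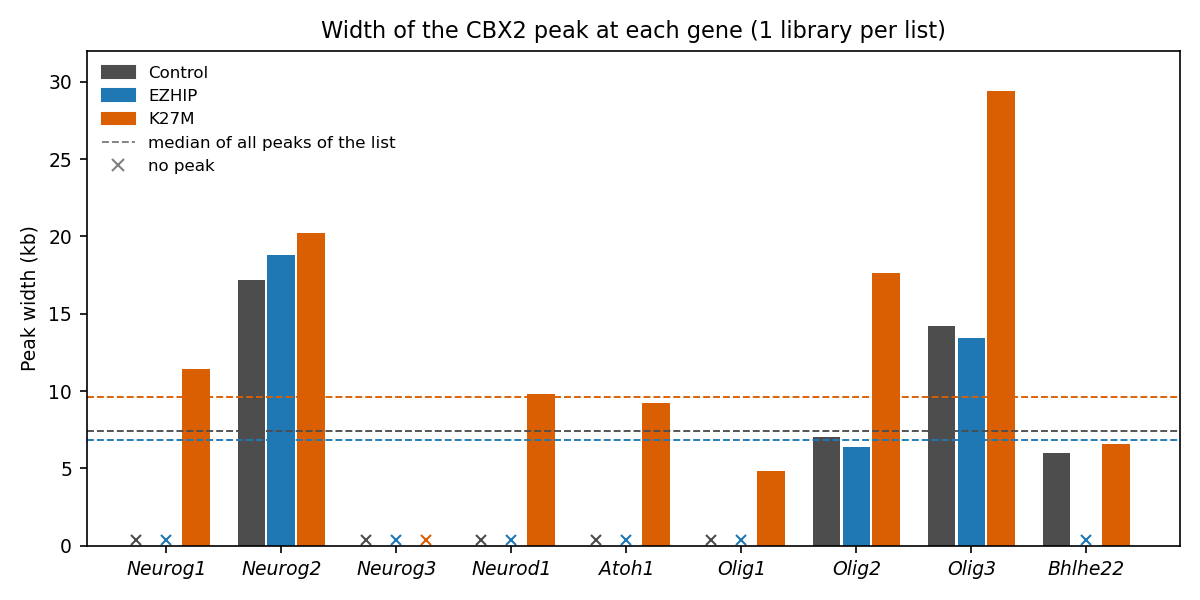
Width in kb of the CBX2 peak at each gene in the Control, EZHIP and K27M lists (1 library each, no error bars), with crosses where no peak was called and dashed lines at the median width of all peaks of a list. Olig2 and Olig3 show the wide K27M bars of 17.6 and 29.4 kb, while the bars of Neurog2 differ by at most 3.0 kb.

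Among the 4 genes with a peak in both Control and K27M, the K27M peak was the wider at each. The log2 ratio of K27M to Control width was 0.14 at Bhlhe22, 0.23 at Neurog2, 1.05 at Olig3 and 1.33 at Olig2. The median of these was 0.64, beside 0.32 (interquartile range 0.02 to 0.94) over all 229 Control peaks with a K27M counterpart, of which 75.5% were wider in K27M. Olig2 and Olig3 lay above that range and Neurog2 and Bhlhe22 within it. For EZHIP, the log2 ratio to Control was 0.13 at Neurog2, -0.08 at Olig3 and -0.13 at Olig2. These lay on either side of the median of -0.09 over the 192 Control peaks with an EZHIP counterpart, and inside its interquartile range of -0.43 to 0.15. In both comparisons over all peaks, the widths of every peak overlapping a Control peak were summed. A peak spanning several Control peaks counted in full for each. Those ratios can therefore be higher than ratios of single pairs, as used at the genes here.

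Within the 9 windows of gene body and 5 kb on each side, 112.7 kb in all, K27M peaks covered 76.0 kb, Control peaks 37.5 kb and EZHIP peaks 30.9 kb. As shares of the windows these were 67.4%, 33.3% and 27.5%. The members' peaks were not uniformly wide. Their median width was 10.6 kb in both Control (4 peaks, 6.0 to 17.2 kb) and K27M (8 peaks, 4.8 to 29.4 kb) and 13.4 kb in EZHIP (3 peaks, 6.4 to 18.8 kb), beside medians over all peaks of 7.4, 9.6 and 6.8 kb in the same lists.

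CpG content, which the choice of genes had not used, was high at most of the starts. A CpG island window (500 bp, minimum G+C content 55%, minimum ratio of observed to chance CpG frequency 0.65) was present within 1 kb of the 5′ end of all 9 genes. The share was 53.2% over all protein-coding genes and 82.4% over the 267 with the 5′ end in a K27M peak. Counted within 1 kb on either side, CpG dinucleotides numbered from 62 at Neurod1 to 165 at Neurog2, with a median of 113 beside 61 over all genes. Neurog3 had 89, more than Neurod1 and more than the 82 of Olig3, both of which had peaks. Neither the CpG count nor the presence of an island thus separated the gene without a peak from those with peaks.

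The islands within 10 kb of the starts lay largely inside the peaks. There were 19 in all, and 7 held the annotated 5′ end. The 8 genes with a K27M peak had 17 of them, and the K27M peaks touched all 17 and contained 16 in full. Control peaks touched 8 of the 9 islands at their 4 genes, and EZHIP peaks 7 of the 8 at their 3 genes. For comparison, K27M peaks touched 89.4% of the islands within 10 kb of all genes whose 5′ end lay in such a peak, and the Control and EZHIP shares were 87.7% and 85.3%, so the contact was common to CBX2 peaks at gene starts.

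Separate islands lay inside the arms of the peaks at some genes and not at others. At Olig3, the upstream arm of the K27M peak reached 18.8 kb, but the only island in that peak lay from 0.05 to 1.05 kb. At Neurog1, a separate island lay from -7.55 to -6.15 kb relative to the 5′ end, inside the upstream arm of the K27M peak. At Atoh1, a separate island lay from 5.25 to 6.05 kb, inside the downstream arm. An autoregulatory enhancer of Atoh1 is known on that side, and its overlap with the peak or the island was not tested. At Neurod1, islands on each side of the start, from -2.55 to -2.05 kb and from 1.85 to 2.85 kb, were both inside the peak. The peak caller's maximum-gap setting lets separate enriched segments be merged. As given in the paper, that gap is longer than the whole Neurod1 and Atoh1 peaks. The stretch between islands need not itself have been enriched, and this was not tested. Widths and edges at the other genes depend on the same setting.

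At Olig2, the additional 10.6 kb of the K27M peak included an island from -5.7 to -5.0 kb that neither other list covered. The sequence added in K27M held 22.1 CpG dinucleotides per kb, against 48.3 per kb in the Control peak. At Olig3 the 15.2 kb added held 135 CpG dinucleotides (8.88 per kb) and no island, against 284 in the 14.2 kb of the Control peak, and the genome average was 8.34 per kb. The added sequence was also poorer in CpG than the Control peak at Neurog2 (14.3 against 29.9 per kb over 3.0 kb) and at Bhlhe22 (18.3 against 43.2 per kb over 0.6 kb).

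**Figure D3:**
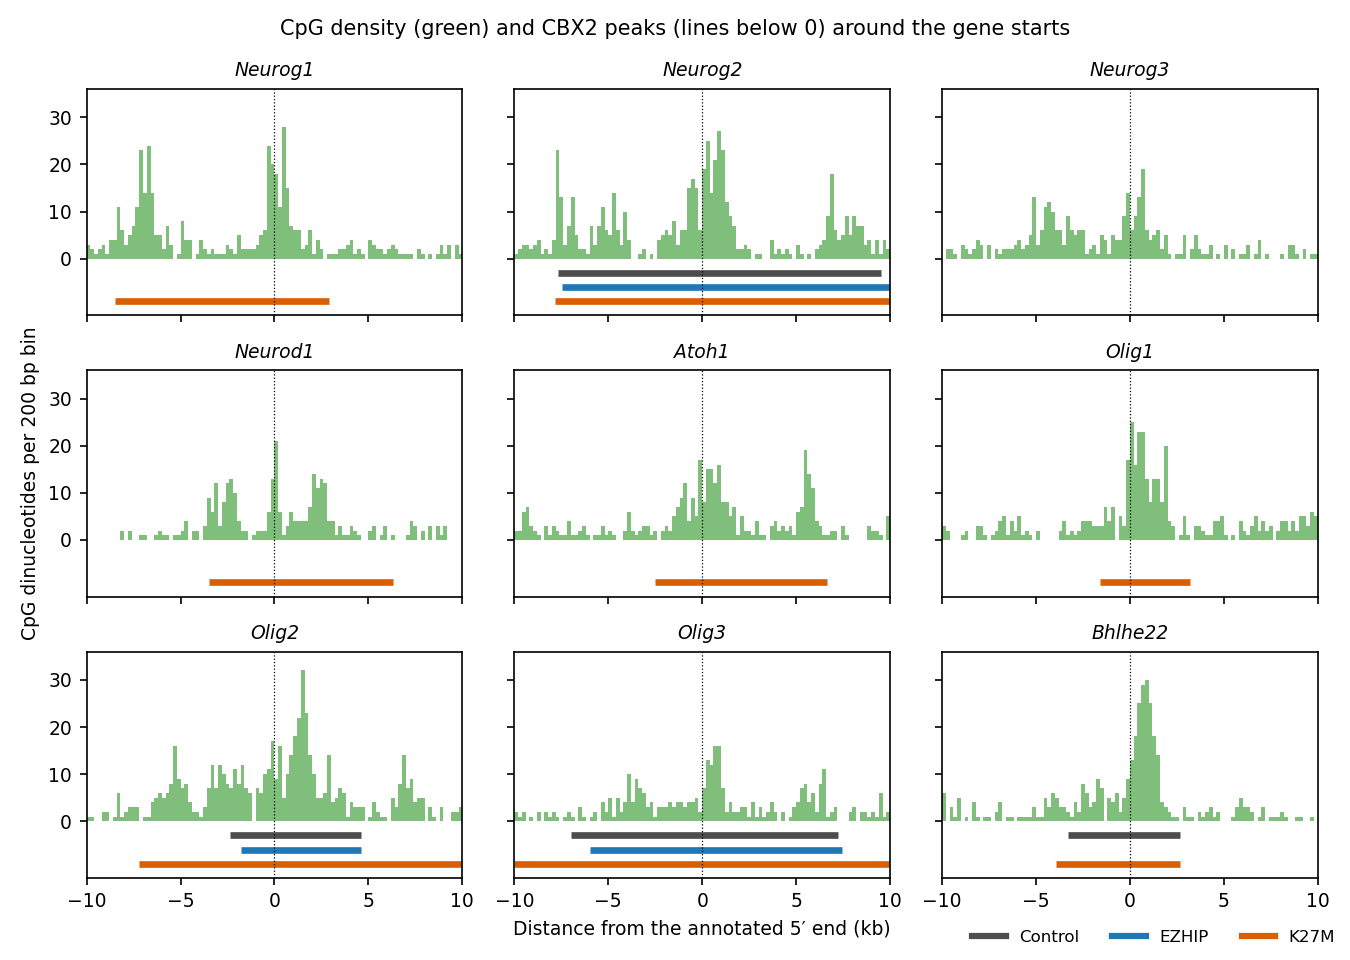
CpG dinucleotides per 200 bp bin (green bars) against the distance in kb from the annotated 5′ end of each gene, transcription to the right, with lines below 0 for the Control, EZHIP and K27M peaks, cut at 10 kb. The K27M lines at Neurog1, Neurod1 and Atoh1 span the start and a separate CpG island upstream at Neurog1, downstream at Atoh1 and on either side at Neurod1, and at Olig3 the K27M line runs past both sides of the panel.

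E-boxes, the letters CANNTG that bHLH dimers bind, were not more frequent at these starts than at others. The motif is symmetric, so matches on either strand coincide, and overlapping matches were counted separately. In the 250 bases before the 5′ end it was present at 5 of the 9 genes, once each at Neurog1, Neurog3 and Olig3, 3 times at Neurod1 and 4 times at Bhlhe22. Of all 22362 protein-coding genes with a complete sequence there, 63.6% held it. A match of these letters is no evidence of a bound site.

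Copy number of the sequence bears on whether reads could be placed. Of 32-base words sampled every 100 bp, from 0 to 8.14% occurred more than once in mm9 across the 15 peaks at the 9 genes. The highest values were those of Neurog2, 8.14% in Control, 7.45% in EZHIP and 6.93% in K27M. At Neurog1, Atoh1, Olig1 and Bhlhe22 no sampled word was repeated.

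Of 13 other neural bHLH genes, 4 had a peak within 5 kb in K27M, 1 in Control and 1 in EZHIP. Ptf1a, a determinant of pancreas and of inhibitory neurons, had a 12.4 kb peak in K27M alone. Neurod2, a neuronal differentiation factor, had peaks 7.2 kb wide in Control, 9.8 kb wide in EZHIP and 12.2 kb wide in K27M, and its 5′ end lay inside the K27M peak but 0.362 kb outside the others. Nhlh2, expressed in developing hypothalamic neurons, had a 4.0 kb K27M peak that began 0.333 kb from its 5′ end.

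Counts in the other lists of the pathway are to be read beside the shares of 1.78% in K27M, 1.49% in Control and 1.44% in EZHIP over all protein-coding genes, at which lists of this size would mostly hold no gene with a peak. Among 16 genes of E proteins (Tcf3, Tcf4, Tcf12), Id inhibitors and Hes or Hey repressors, no gene had a peak in Control or K27M, and Id3 had a 2.6 kb EZHIP peak 0.189 kb from its 5′ end. No peak lay near any of 9 Notch ligand and receptor genes in any list. Of 11 neuronal genes downstream of proneural factors, 3 had a K27M peak and 2 a peak in each other list. Insm1, a zinc finger factor of neuroendocrine progenitors, had a peak in every list, 6.2 kb wide in Control, 4.6 kb in EZHIP and wider than either in K27M. Barhl2, a homeobox gene of the spinal cord and retina, had peaks of 23.8, 19.6 and 29.4 kb in Control, EZHIP and K27M, and Barhl1 had an 8.8 kb peak in K27M alone. Of 8 oligodendrocyte lineage genes, Nkx2-2 had a 7.2 kb K27M peak that began 2.38 kb from its 5′ end, and the others had none.

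**Figure D4:**
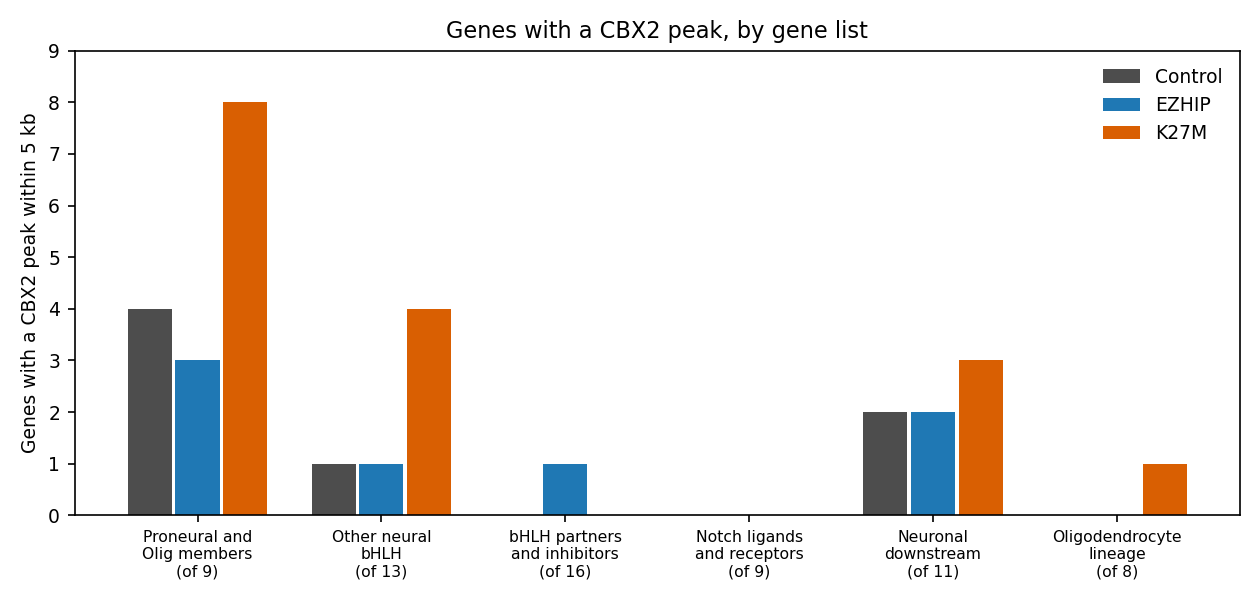
Number of genes with a CBX2 peak within 5 kb in the Control, EZHIP and K27M lists, for the 9 genes and 5 lists of related genes, with the size of each list below its name. The K27M bars are highest for the 9 genes (8) and the other neural bHLH genes (4), and the Notch list has no bar.

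Genes with the most similar coverage were found by the length covered within 10 kb of the 5′ end in each of the 3 lists, and likeness was the summed absolute difference. Neurog1, with 0, 0 and 11.4 kb in Control, EZHIP and K27M, lay nearest to Irs4 (0.2 kb apart), Ptf1a (0.29 kb) and Pou4f2 (0.4 kb). Atoh1 (9.2 kb in K27M alone) lay nearest to Nr5a2 (0.003 kb), Irx4 (0.145 kb) and Hpse2 (0.2 kb, tied with another gene). Neurod1 (9.8 kb in K27M alone) lay nearest to Cerkl, which shares its peak, then Hand2 (0.2 kb) and Hpse2 (0.4 kb). Ptf1a, Pou4f2, Irx4 and Hand2 are developmental transcription factors, whereas Irs4 is a signalling adaptor and Hpse2 a heparanase relative. Olig1 (4.8 kb in K27M alone) was equalled by Rimklb and Sp6, followed by 4930572O03Rik (0.124 kb).

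Genes bound in several lists had looser matches. Olig2 (7.0, 6.4 and 17.2 kb) lay nearest to Onecut1 (2.58 kb), Lhx8 (5.00 kb) and Tlx1 (5.18 kb). Olig3 (14.2 and 13.4 kb, with the whole window filled in K27M) lay nearest to Dmrt3 (2.75 kb), Pax2 (3.54 kb) and Evx1 (4.60 kb). Neurog2 (17.2, 17.5 and 17.9 kb) lay nearest to the predicted gene Gm10716 (1.68 kb), Foxb1 (2.47 kb) and Onecut2 (2.60 kb). Gm10716 had the same 18.064 kb covered in each list, and whether reads can be placed uniquely there was not tested. Bhlhe22 (6.0, 0 and 6.6 kb) lay nearest to Lmx1a and Actb (2.0 kb each) and Shisa3 (2.8 kb). Likeness here rests on 3 values per gene and says nothing of shared control.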

How the data were processed

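CBX2 ChIP-Seq peak lists of 3 MEF libraries (Control, EZHIP and K27M) were analysed. According to the methods of the study, reads were aligned to mm9 and a spike-in genome with Bowtie (version 1.0.0 in the submitters' processing notes) at default settings, and broad peaks were determined per library with MOSAiCS-HMM, which can merge nearby segments. Use of an input and scaling before calling are not given in the sources used here. The deposited files hold chromosome, start and end of each peak. Positions are given 1-based on mm9.

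Genes were taken from GENCODE vM1 and sequence from NCBIM37, the assembly of mm9, and 0 peaks ran past a chromosome end. The 5′ end was the outermost annotated position. RefSeq upstream sequences, matched exactly to mm9, gave a start for 7 of the 9 genes at most 115 bp away. The related lists matched 8 of 9 oligodendrocyte and 6 of 8 neural marker symbols. Genes named were the 9 members, genes sharing a member's peak, genes of the lists with a peak near them (1 of which is not reported here), and the 3 genes of most similar coverage. The members and lists were chosen with earlier results of these data known. No p-value was computed, because each group had 1 library. Overlap and sequence steps were tested on simulated data. Python 3.11.15, numpy 2.4.6, matplotlib 3.10.9 and samtools 1.23.1 were used. Alternatives were other flanks, a minimum width, joined peaks, equal list sizes, a larger overlap and other starts.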

Additional observations from a re-analysis of the deposited data

How the results depend on the processing

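The 31 results were recomputed under 9 settings. Of the 214 values obtained, 193 lay within 1.5 times the reported one (or, for a percentage of all genes, within its exact binomial interval) and 21 moved. The numbers of genes with a peak, with the 5′ end inside a peak, and with a peak in K27M alone stayed within 1.5 times under all settings run. The change among them was with peaks of at least 5000 bp, where Olig1 was lost, leaving 7 genes in K27M and 3 in K27M alone. These counts are little test of the contrast between lists. The uncalled 5′ end closest to a peak, that of Olig1, lay 39.6 kb away, beyond the widest flank of 10 kb. A minimum width, a larger overlap and equal list sizes can only remove calls. No setting was thus able to restore a peak missing from Control or EZHIP. The covered length in the windows moved with the window itself. In the order Control, EZHIP, K27M it was 10.3, 7.67 and 20.5 kb without a flank, and 23.8, 18.9 and 48.4 kb with a flank of 2 kb. Of the percentages of all genes, 15 moved, and the peak widths at the genes did not. The widths are no test of stability, because most settings leave the edges of a called peak as they are. They are counted among the 193 values, so that number overstates how far the results were tested. The RefSeq start was added after the data were seen and changed no call. The 255 widest peaks of each list gave the same counts, but this setting reached no peak at the 9 genes. It kept the whole EZHIP list, and the narrowest member peaks ranked 163 in Control and 242 in K27M. The lists were cut by width and not by signal, so this does not adjust for depth. No paired analysis was possible because no group had more than 1 library, so leaving a library out was not possible either. Differences in sequencing depth, unknown here, could change peak calls and widths.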
